A study of Mus musculus with 192 samples.

Results

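The 8 genes described here encode adipokines, proteins that fat tissue releases into the blood or its surroundings. They are Adipoq, Lep, Retn, Cfd, Rarres2, Nampt, Apln and Rbp4, taken by gene symbol, and they make up 8 of the 54752 genes in the deposited tables. Each symbol matched 1 row. The samples came from male mice labelled C57BL/6 (C57BL/6J in the methods), either wild type (WT) or lacking Nfe2l2, the gene for the transcription factor Nrf2 (Nrf2-KO). Their labelled age of 12 weeks is that before launch, not at dissection. Flight mice (FL) lived for about a month on the International Space Station in cages of 1 mouse each and were dissected after return to Earth. Ground control mice (GC) were kept singly in the same type of cage in Japan, in a later simulation of the mission. Flight and ground mice thus differed in place and date of dissection as well as in flight, and these cannot be told apart. The deletion is carried by every cell of the Nrf2-KO mice, and these mice had been chosen for lack of a liver shunt.

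RNA was sequenced from 2 fat depots, the epididymal white depot (eWAT) and the brown depot between the shoulder blades (iBAT), and from 7 other tissues: Liv (liver), Kid (kidney), Spl (spleen), Thy (thymus), Cbr (cerebrum), TpB (temporal bone) and MdB (mandible). The groups GC_WT, FL_WT, GC_KO and FL_KO held 6 mice each, and 3 in MdB and Kid. FL mouse 04, which the study set aside after it fell ill, was left out of FL_KO, which then had 5 mice, 2 in MdB and 3 in Kid. The 184 libraries used held 8007523 to 16308175 counts, lowest in Thy. Thy RNA was depleted of ribosomal RNA, whereas RNA of the other tissues was selected for poly(A) tails, so tissue and library type cannot be told apart in levels of Thy against other tissues. Levels are given as TPM, transcript abundance scaled to transcript length and library total. Nfe2l2 was lower in every Nrf2-KO library than in every WT library of each tissue, but its transcript was not absent. It was 25.8 to 40.8 TPM in Nrf2-KO eWAT against 58.1 to 87.9 in WT. In Spl it was 60.4 to 67.8 TPM against 73.1 to 86.7. The 2 fat depots matched their labels in marker transcripts. The adipocyte list (10 genes such as Plin1 and Fabp4) summed to 30800 to 52690 TPM in eWAT. The brown adipocyte list (8 genes such as Ucp1) summed to 5112 to 9242 TPM in iBAT, against at most 70.9 TPM in eWAT. In iBAT, the libraries of FL_WT mice 06 and 08 and FL_KO mouse 11 held 3829 to 9972 TPM of skeletal muscle transcripts against at most 81.1 TPM in the others. TpB libraries held 1787 to 31120 TPM of muscle transcripts, except that of GC_KO mouse 01 with only 15.8 TPM. In MdB they were at most 1131 TPM. The adipocyte list of GC_KO mouse 01 in TpB, at 184.6 TPM, was the lowest of the tissue.

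Adipokines carry information from fat cells to other organs. Leptin reports the size of fat stores to the brain, and adiponectin acts on liver and muscle through its own receptors. Complement factor D (adipsin, Cfd) is a protease of the alternative complement pathway, and resistin (Retn) is in mice made mainly by white fat cells. Chemerin (Rarres2) attracts immune cells and acts on adipocytes, apelin (Apln) acts on vessels and the heart, retinol-binding protein 4 (Rbp4) carries retinol and is made mainly by the liver, and Nampt makes a precursor of NAD in most cells and is also released as visfatin.

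All 8 genes are protein coding, and their positions below are those of GENCODE on GRCm38. Adipoq lies at chr16:23146536-23158028 on the plus strand, Lep at chr6:29060220-29073877 (plus), Retn at chr8:3655770-3660110 (plus) and Cfd at chr10:79890853-79892655 (plus). Rarres2 lies at chr6:48569696-48572789 (minus), Nampt at chr12:32819545-32853349 (plus), Apln at chrX:48025146-48034853 (minus) and Rbp4 at chr19:38116629-38125281 (minus).  The 100 bases before the RefSeq start site (GRCm38.p6) are shown for the 4 members that eWAT carried far above the other tissues, and for Rbp4, the member that changed most in iBAT. They are written 5′ to 3′ on the gene's own strand, with capitals for a match to the C/EBP motif TTGCNNAA or to the TATA box TATAAA. They span chr16:23146436-23146535 for Adipoq, chr6:29060121-29060220 for Lep, chr8:3655670-3655769 for Retn, chr10:79890753-79890852 for Cfd and chr19:38124812-38124911 for the second Rbp4 start.
Adipoq: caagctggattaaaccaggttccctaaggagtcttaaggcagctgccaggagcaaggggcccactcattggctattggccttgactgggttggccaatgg
Lep: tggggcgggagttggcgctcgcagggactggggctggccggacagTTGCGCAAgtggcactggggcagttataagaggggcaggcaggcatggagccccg
Retn: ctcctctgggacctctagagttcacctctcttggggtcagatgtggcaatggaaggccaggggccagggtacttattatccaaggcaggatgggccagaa
Cfd: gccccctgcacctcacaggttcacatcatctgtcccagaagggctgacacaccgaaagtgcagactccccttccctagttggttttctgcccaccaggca
Rbp4: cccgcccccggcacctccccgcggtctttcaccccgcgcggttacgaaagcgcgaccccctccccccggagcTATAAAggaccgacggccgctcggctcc

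Promoter windows of 300 bases (250 before and 50 after the start) were found for 7 of the 8 genes, and 6 motifs were searched in them on both strands. In Lep, TTGCGCAA lay 55 to 48 bases before the start and reads the same on both strands. In Rbp4, a match (TTATGCAA, antisense) lay 128 to 121 bases before the start, outside the stretch shown. TTGCNNAA occurs in 10.8% of the 32851 mouse promoter windows. The TATAAA of Rbp4 lay 28 to 23 bases before the start, and 13.6% of all windows hold that motif. All matches in Rbp4 lay at its second start, and its first start had no match to any of the 6 motifs. A GC box (GGGCGG, in 35.7% of windows) matched in Lep, Nampt, Apln and Rbp4, and the half-site AGGTCA (in 16.3%) matched in Nampt alone. The antioxidant response element TGACNNNGC, bound by Nrf2 (in 12.4% of windows), and the E-box CACGTG (in 7.15%) matched in none of the 7 genes. A match is a match of letters only, as is its absence.

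In GC_WT mice the 8 genes fell into different tissue patterns. TPM values are scaled to transcript length, so levels can be compared between genes. Adipoq, Lep, Retn and Cfd were highest in eWAT. Cfd averaged 22720 ± 4632 TPM there (mean ± SD, n = 6), which was 2.27% of all transcripts, Adipoq 4971 ± 496, Retn 1576 ± 232 and Lep 729.9 ± 296. In iBAT, the next tissue for each of them, the mean was 11.6% of the eWAT level for Adipoq, 5.36% for Cfd, 1.83% for Retn and 0.726% for Lep, and no iBAT value reached the eWAT range. For all 4 genes TpB came next, and then Thy. The ranges of TpB and iBAT overlapped for Lep and Retn but not for Adipoq and Cfd. In the other 5 tissues each of the 4 genes averaged at most 2.78 TPM, and the ranges of neighbours in that order overlapped. Some tissues further apart in the order did not overlap. Retn was 0.38 to 1.3 TPM in Cbr (2 to 7 counts) and at most 0.24 in Liv. Cfd was at least 0.16 TPM in Spl and 0.12 in Liv. All GC_WT libraries listed Lep at 0 in MdB, Kid and Cbr, Cfd at 0 in MdB and Cbr, and Retn at 0 in MdB.

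Rarres2 was shared by fat and liver, at 546.4 ± 96.3 TPM in eWAT and 531.5 ± 40.7 in Liv (n = 6 each), and these ranges overlapped. It then dropped to 89.7 ± 11.2 TPM in Spl and to 4.24 ± 1.55 in Thy, the lowest tissue and the one with ribosome-depleted libraries, and between these TpB, MdB, iBAT and Kid each overlapped with the next. Rbp4 was highest in Liv, at 3790 ± 119 TPM, and eWAT reached 25.5% of that with no overlap. Its order ran on through iBAT (124.9 ± 34.8 TPM), TpB (35.0 ± 12.4) and Cbr (15.5 ± 2.63), each below the range of the one before.

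Nampt was the most even member. It ranged from 135.8 ± 15.6 TPM in iBAT (n = 6) and 86.4 ± 9.55 in eWAT to 12.3 ± 0.925 in MdB (n = 3). Kid, TpB, Liv and Spl averaged between 34.0 and 47.4 TPM, and the ranges of neighbours in that order overlapped, while those of Kid (43.6 to 53.1 TPM) and Spl (31.3 to 36.8) did not. Apln was low throughout and highest in Cbr, at 15.9 ± 1.37 TPM, with eWAT at 9.94 ± 4.62 and an overlapping range. The heat map of tissue means shows these patterns.

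**Figure D1:**
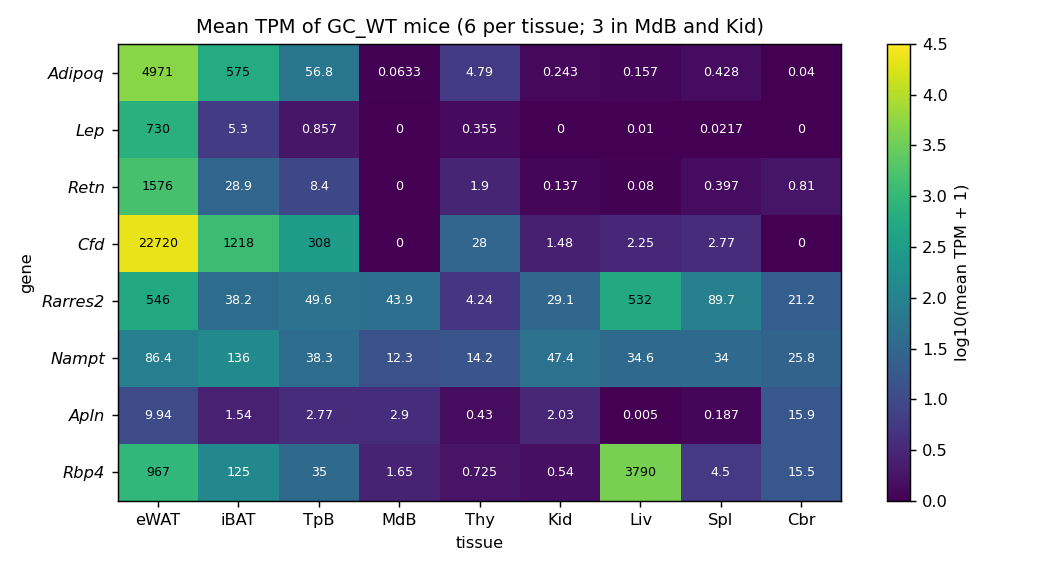
Mean TPM of each adipokine gene (rows) in each tissue (columns) of GC_WT mice, 6 per tissue and 3 in MdB and Kid; the numbers are means and the colour is log10(mean TPM + 1). Adipoq, Lep, Retn and Cfd peaked in eWAT, Rbp4 in Liv, Nampt in iBAT and Apln in Cbr, and Rarres2 was at 546.4 TPM in eWAT and 531.5 in Liv.

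The genes with the most similar profile were found by Pearson's r of log2(mean TPM + 1) over the 36 means of tissue and group, which share tissues and libraries. For Adipoq these were Plin1 (r = 0.995), Cfd (0.987) and Adig (0.986), and for Cfd they were Adipoq, Plin1 (0.973) and Meox2 (0.972). Lep was nearest to Gm5144 (0.992), Mc2r (0.99) and Gm15551 (0.989), and Retn to Lep (0.981), Gm15551 (0.98) and B430010I23Rik (0.973). The others lay nearest to genes outside the group, with Cd302 (0.955) first for Rarres2, Iars2 (0.946) for Nampt, Gm2415 (0.963) for Apln and Bche (0.954) for Rbp4.

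Over the 23 eWAT libraries, where group differences also enter r, the nearest gene to Cfd was Cyp2e1 (0.942), to Nampt Gbe1 (0.925), to Rarres2 Atp9a (0.92) and to Lep C130074G19Rik (0.912). The nearest genes to Adipoq, Retn, Rbp4 and Apln were Ces1d (0.868), Taldo1 (0.836), Gm28437 (0.826) and Plod1 (0.802). Thus no member was the nearest neighbour of another within eWAT.

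Flight was compared with ground control in each genotype and tissue with edgeR's quasi-likelihood test, and calls were made where the p adjusted over all genes tested in the tissue was under 0.05. A member had enough counts for the test in 52 of the 72 pairs of gene and tissue. The 20 other pairs were filtered out, all in MdB, Kid, Liv, Spl and Cbr. In WT mice 9 pairs were called with flight, 3 higher and 6 lower, and in Nrf2-KO mice 6 were called, 3 higher and 3 lower. All of these lay in eWAT, iBAT and Thy. Whole tissue cannot show whether fewer cells of a type or less RNA per cell lies behind a lower value.

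In eWAT of WT mice, Cfd, Nampt, Rbp4 and Retn fell with flight and Rarres2 rose, 5 of the 8 members called. The same rule called 13.4% of all genes tested in eWAT in this comparison. In Nrf2-KO mice 1 member, Nampt, was called, against 7.71% of all genes. The TPM ranges of flight and ground mice did not overlap for 3 members in WT (8.01% of all genes with at least 5 TPM) and for 2 members in Nrf2-KO (5.77%).

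Cfd had the largest fold difference of the members in eWAT. Its level in GC_WT ran from 15870 to 29240 TPM (median 22390) and in FL_WT from 7318 to 14570 (median 8894), so that every flight mouse lay below every ground mouse. In GC_KO it ran from 13500 to 20410 TPM (median 15050), and the 5 FL_KO mice had 9046, 11510, 11540, 12790 and 16030 TPM. In WT mice Cfd fell by 1.28 on the log2 scale (SE 0.195, 2.43-fold lower, adjusted p = 0.0001665). In Nrf2-KO mice the groups overlapped and the log2 difference was −0.44 (SE 0.202, adjusted p = 0.1938). The share of all transcripts that came from Cfd was 2.27% in GC_WT, 1.01% in FL_WT, 1.64% in GC_KO and 1.22% in FL_KO.

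Nampt was the only member called in both genotypes in eWAT. It ran from 76.7 to 99.96 TPM (median 84.9) in GC_WT and from 45.9 to 65.1 (median 49.98) in FL_WT. In GC_KO it ran from 73.2 to 103.0 TPM (median 90.6), and FL_KO mice had 50.8, 51.4, 55.2, 58.9 and 63.9 TPM. The flight and ground ranges did not overlap in either genotype. Nampt fell by 0.79 (SE 0.111, 1.73-fold, adjusted p = 9.051e-05) in WT and by 0.69 (SE 0.117, 1.61-fold, adjusted p = 0.001247) in Nrf2-KO mice on the log2 scale.

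Rbp4 in eWAT ran from 735.2 to 1188 TPM (median 967.6) in GC_WT and from 583.7 to 829.5 (median 700.4) in FL_WT, with overlapping ranges. It fell by 0.54 (SE 0.146, 1.46-fold, adjusted p = 0.01557). In GC_KO mice it ran from 698.0 to 1072 TPM (median 993.5), and in the FL_KO mice it was 755.7, 897.6, 921.4, 921.7 and 945.5. The Nrf2-KO groups overlapped throughout, with a log2 difference of −0.10 (adjusted p = 0.766).

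Retn ran from 1239 to 1862 TPM (median 1551) in GC_WT and from 960.7 to 1413 (median 1161) in FL_WT eWAT. It fell by 0.52 on the log2 scale (SE 0.113, 1.43-fold, adjusted p = 0.003866). GC_KO mice ranged from 1314 to 1678 TPM (median 1424), and FL_KO mice had 1132, 1144, 1247, 1259 and 1363. Only FL_KO mouse 09 reached the GC_KO range, but the difference of −0.27 was not called (adjusted p = 0.1648).

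Rarres2, the chemerin gene, was the member that rose in eWAT. GC_WT mice ranged from 396.6 to 672.4 TPM (median 533.6) and FL_WT mice from 681.7 to 818.4 (median 716.4), with no overlap. It rose by 0.32 (SE 0.106, 1.25-fold, adjusted p = 0.04758) on the log2 scale. GC_KO mice ranged from 510.1 to 656.8 TPM (median 564.4), and the FL_KO values of 681.8, 707.4, 713.1, 726.3 and 804.4 TPM all lay above them. The Nrf2-KO difference was 0.31 (SE 0.111, adjusted p = 0.09126) and was not called by edgeR. It was called with the mouse number as a block (adjusted p = 0.02208) and by limma on TPM (adjusted p = 0.04319). The WT call sat at the threshold and was lost without FL_KO mouse 01 (adjusted p = 0.05009) or mouse 09 (0.05154), which share only the estimate of spread, without the filter on low counts (0.07776) and in a fit of the contrast groups alone (0.06229).

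Adipoq, Lep and Apln were not called with flight in eWAT. Adipoq ran from 4457 to 5804 TPM in GC_WT (median 4888) and from 3989 to 5067 in FL_WT (median 4494), a log2 difference of −0.22 (SE 0.107, adjusted p = 0.181). In GC_KO it ran from 3512 to 4592 TPM (median 4007), and FL_KO mice had 4567, 4594, 4755, 5011 and 5227, a log2 difference of 0.24 (SE 0.112, adjusted p = 0.1953). The values of the Nrf2-KO groups touched at 1 mouse, and limma on TPM called this difference (adjusted p = 0.03754).

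Lep, the leptin gene, spread widely among GC_WT mice, from 290.8 to 1147 TPM (median 734.6), against 881.1 to 1135 (median 964.3) in FL_WT. Its log2 difference was 0.34 (SE 0.201, adjusted p = 0.2934). In GC_KO it ran from 775.4 to 1401 TPM (median 1041), and FL_KO mice had 865.2, 884.8, 1241, 1316 and 1372, a log2 difference of 0.10 (SE 0.21, adjusted p = 0.8299). Apln was the lowest member in eWAT, at 4.56 to 17.0 TPM in GC_WT and 8.17 to 19.9 in FL_WT. Its log2 differences of 0.36 in WT (adjusted p = 0.4411) and 0.51 in Nrf2-KO mice (adjusted p = 0.3096) were within the spread.

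**Figure D2:**
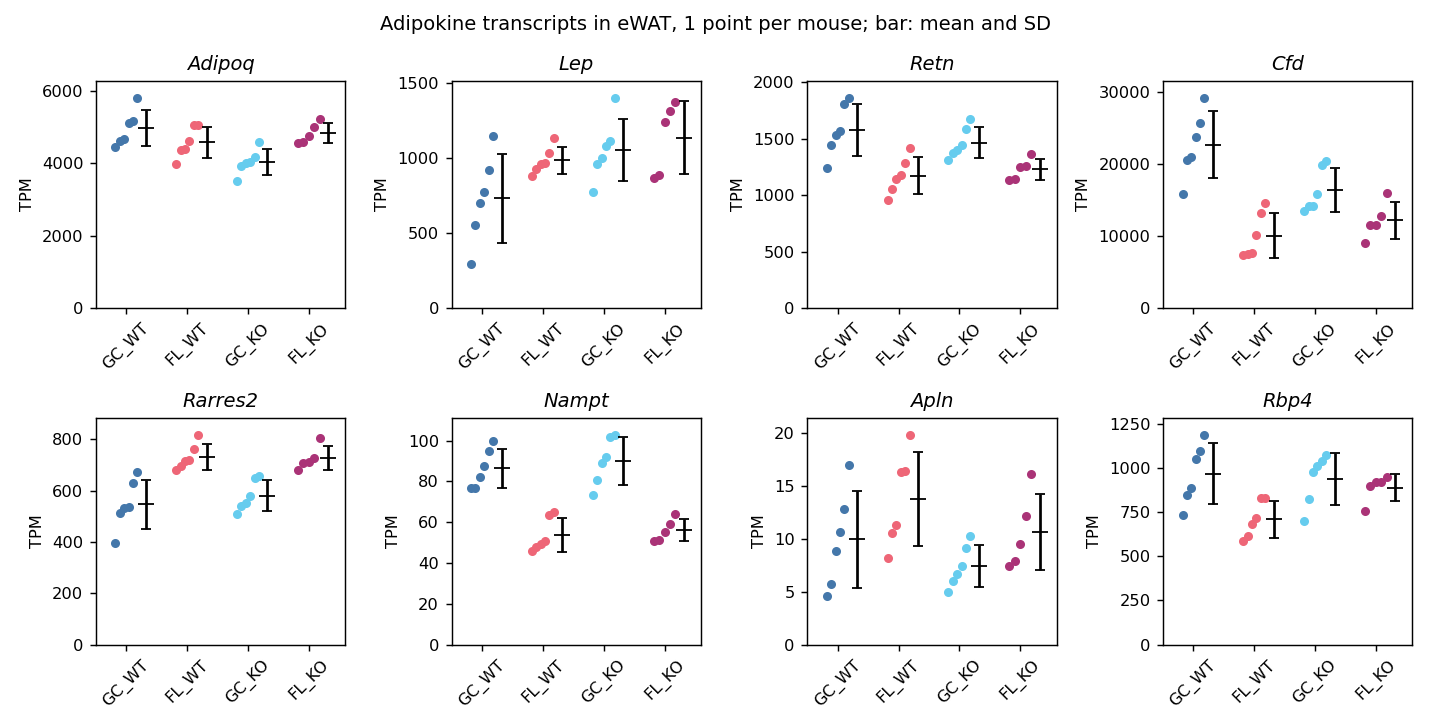
TPM of each adipokine gene in eWAT, 1 point per mouse, by group (6 mice, 5 in FL_KO), with bars for the mean and SD. The FL_WT points for Cfd lay between 7318 and 14570 TPM, below all GC_WT points, and those for Nampt lay below the ground mice in both genotypes.

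The interaction, which asks whether flight acted differently in Nrf2-KO and WT mice, was called for none of the 52 pairs by edgeR, DESeq2 or limma. In edgeR, 5 pairs had an unadjusted p under 0.05. Over all genes, the interaction called 0% in each of the 9 tissues by edgeR, where 321 to 1342 genes a tissue had an unadjusted p under 0.05. DESeq2 called 113 of 4554 genes in iBAT and 0 to 13 in each other tissue, and limma on log2(TPM + 1) called 5 in iBAT, 1 in MdB and 0 elsewhere. In eWAT the largest values on the log2 scale were 0.84 for Cfd (SE 0.277, adjusted p = 0.4156), 0.46 for Adipoq (SE 0.154, adjusted p = 0.4156) and 0.45 for Rbp4 (SE 0.21, adjusted p = 0.5867). The calls of Cfd, Retn and Rbp4 in WT alone are therefore not shown to differ between genotypes.

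Markers of other cells also moved in eWAT. The macrophage list (8 genes) summed to 649.4 to 862.4 TPM in GC_WT and 898.5 to 1535 in FL_WT, with 3 members higher and 1 lower, and to 687.9 to 978.0 in GC_KO and 775.3 to 1017 in FL_KO, with none called. In WT mice 3 of 6 endothelial genes were higher and 3 of 6 genes of the fibro-adipogenic precursor list were lower. In Nrf2-KO mice 1 of 6 was called in each, in the same directions. The adipocyte list summed to 38400 to 45990 TPM in GC_WT, 43390 to 52690 in FL_WT, 30800 to 42060 in GC_KO and 44240 to 47800 in FL_KO. In WT, 2 of its 10 genes were higher and none lower, and in Nrf2-KO 2 were higher and 1 lower. Of 7 mesothelial, 4 skeletal muscle and 8 hepatocyte genes tested in eWAT none was called with flight in either genotype, the 8 epididymis genes were too low to test, and of the 6 brown adipocyte genes tested 1 was lower in Nrf2-KO. Over all genes tested in eWAT, 13.4% were called in WT and 7.71% in Nrf2-KO. The part of these cell types in the adipokine values was not tested.

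In iBAT, Rbp4 and Nampt fell and Adipoq rose with flight in both genotypes, 3 of the 8 members in each. In this tissue 19.2% of all genes were called in WT and 33.5% in Nrf2-KO, so the members' share in Nrf2-KO was near the background. In WT the TPM ranges of flight and ground mice overlapped for all members (24.1% of all genes with at least 5 TPM did not), and in Nrf2-KO they were apart for Adipoq and Rbp4 (48.6%). The scale matters here: on log2(TPM + 1) the median of all genes was 0.31 higher in flight in WT and 0.43 higher in Nrf2-KO, and the edgeR values below, after TMM scaling, are relative to that shift. The corresponding median shift was 0.19 and 0.10 in TpB, 0.18 and 0.16 in Thy, and 0.09 and 0.02 in eWAT.

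Rbp4 in iBAT of Nrf2-KO mice had the smallest adjusted p among the members' flight comparisons. Its level in iBAT ran from 80.4 to 180.2 TPM (median 119.4) in GC_WT and from 51.8 to 84.4 (median 64.1) in FL_WT, where 1 flight mouse lay just inside the ground range. GC_KO mice ranged from 112.0 to 164.9 TPM (median 146.4), and the FL_KO mice had 36.6, 51.7, 56.8, 68.7 and 81.4, all lower. Rbp4 fell by 1.22 (SE 0.183, 2.33-fold, adjusted p = 8.185e-05) in WT and by 1.69 (SE 0.198, 3.23-fold, adjusted p = 1.291e-06) in Nrf2-KO on the log2 scale. Without the 3 libraries that held muscle transcripts the values were −1.25 (adjusted p = 0.0006285) and −1.72 (adjusted p = 1.044e-05).

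Nampt in iBAT ran from 114.5 to 161.0 TPM (median 135.8) in GC_WT and from 84.2 to 131.4 (median 120.9) in FL_WT. GC_KO mice ranged from 97.5 to 141.2 TPM (median 113.3), and FL_KO mice had 73.7, 78.0, 97.3, 102.1 and 109.5. The groups overlapped in both genotypes. Nampt fell by 0.57 (SE 0.155, adjusted p = 0.01337) in WT and by 0.76 (SE 0.164, adjusted p = 0.001244) in Nrf2-KO. On TPM the WT difference was −0.26 and was not called (limma, adjusted p = 0.07322); on that scale the Nrf2-KO difference was −0.34.

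Adipoq in iBAT ran from 470.8 to 757.0 TPM (median 551.8) in GC_WT and from 679.1 to 1065 (median 877.0) in FL_WT. In GC_KO it ran from 347.3 to 499.3 TPM (median 406.4), and the FL_KO mice, at 645.7, 670.5, 683.6, 748.3 and 784.6, all lay higher. Adipoq rose by 0.29 (SE 0.0939, adjusted p = 0.03515) in WT and by 0.35 (SE 0.0982, adjusted p = 0.00878) in Nrf2-KO. The WT call was lost under 4 of 14 alternatives: without the 3 muscle-bearing libraries (0.25, adjusted p = 0.1279), with the mouse number as a block (0.08805), without the filter on low counts (0.07197) and in a fit of the contrast groups alone (0.05346). The Nrf2-KO call was kept under all 14, also without the 3 libraries (0.34, adjusted p = 0.02125). Limma on TPM gave larger differences in the same direction.

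The other 5 members were not called with flight in iBAT by edgeR. Cfd spread widely, from 586.9 to 2062 TPM (median 1277) in GC_WT and from 685.2 to 1996 (median 1213) in FL_WT, and its difference of −0.30 (SE 0.297, adjusted p = 0.5299) was within that spread. In GC_KO Cfd ran from 176.2 to 748.1 TPM (median 442.2), and FL_KO mice had 738.8, 744.6, 794.4, 828.2 and 984.3 TPM. The Nrf2-KO difference was 0.47 (SE 0.31, adjusted p = 0.2526) by edgeR and 1.05 by limma on TPM, where it was called (adjusted p = 0.009187).

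Lep in iBAT was low and uneven. It ran from 1.23 to 14.8 TPM in GC_WT and from 1.76 to 19.9 in FL_WT, and from 10.8 to 39.7 in GC_KO, while FL_KO mice had 2.42, 2.62, 12.2, 18.9 and 21.4. The differences with flight were 0.24 (SE 0.581, adjusted p = 0.82) in WT and −1.25 (SE 0.61, adjusted p = 0.1205) in Nrf2-KO. With the mouse number as a block the Nrf2-KO difference was −1.56 and was called (adjusted p = 0.01662).

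Retn ran from 10.7 to 42.2 TPM in GC_WT, 8.86 to 75.9 in FL_WT, 7.23 to 49.1 in GC_KO and 7.29 to 51.0 in FL_KO in iBAT. Rarres2 ran from 26.1 to 55.4 TPM in GC_WT, 32.3 to 87.4 in FL_WT, 17.7 to 51.0 in GC_KO and 34.0 to 59.7 in FL_KO. Apln did not exceed 6.03 TPM in any iBAT library. All 3 overlapped between flight and ground, with adjusted p of 0.3088 or more in both genotypes.

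**Figure D3:**
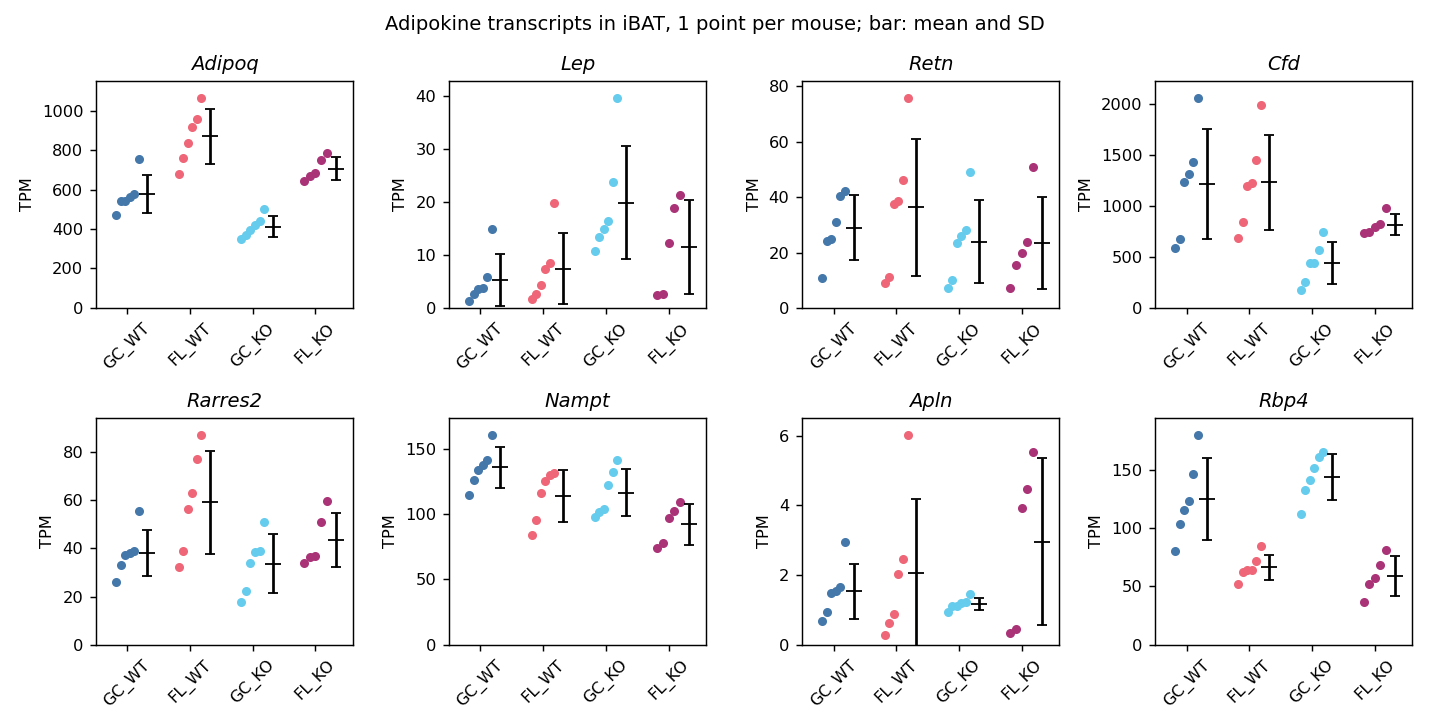
TPM of each adipokine gene in iBAT, 1 point per mouse, by group (6 mice, 5 in FL_KO), with bars for the mean and SD. Rbp4 lay at 36.6 to 81.4 TPM in FL_KO mice, below all GC_KO mice, while Cfd and Lep spread widely within groups.

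**Figure D4:**
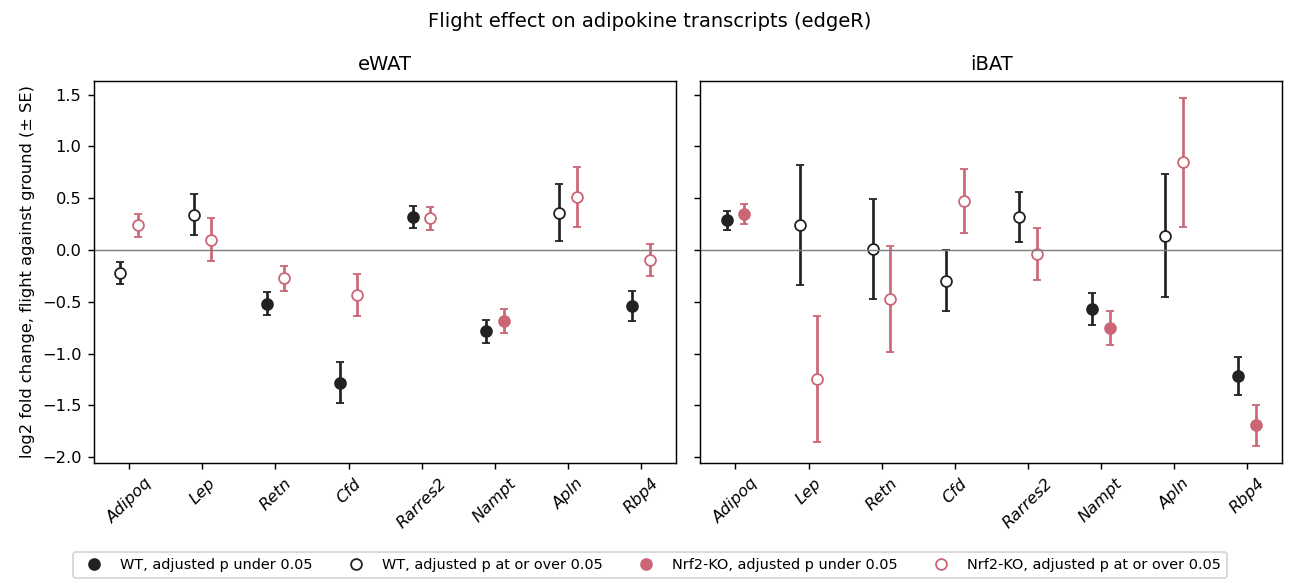
Log2 fold change of flight against ground control (± SE, edgeR) for each adipokine gene in eWAT and iBAT, WT in black and Nrf2-KO in red, filled where the adjusted p was under 0.05. Nampt lay below 0 and was filled in all 4 cases, from −0.57 to −0.79.

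Among cell markers in iBAT, skeletal muscle genes were higher in both genotypes (8 of 10 in WT, 9 of 10 in Nrf2-KO); the transcripts were concentrated in the 3 libraries named above. The brown adipocyte list had 1 gene higher and 3 lower of 8 in WT and 1 higher and 4 lower in Nrf2-KO. Of 10 adipocyte genes, 3 were higher and 1 lower in WT, and 1 higher and 4 lower in Nrf2-KO. Macrophage genes were higher in Nrf2-KO (6 of 8) and in WT none was called. Endothelial and precursor genes had 1 of 6 higher each in Nrf2-KO and none called in WT. Over all genes tested in iBAT, 19.2% were called in WT and 33.5% in Nrf2-KO. No hepatocyte gene (8 tested) and no mesothelial gene (1 tested) was called, and the epididymis genes were too low to test. What part these have in the adipokine values was not tested.

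In TpB none of the 8 members was called with flight, and edgeR called 0% of all genes there in both genotypes. The largest differences were those of Cfd and Retn in WT mice. Cfd ran from 152.6 to 483.5 TPM (median 284.5) in GC_WT and from 37.0 to 102.9 (median 62.9) in FL_WT, and Retn from 4.29 to 12.6 (median 7.89) and from 1.09 to 3.14 (median 2.13). Neither gene overlapped between these groups, which was so for 1.98% of the genes with at least 5 TPM. Cfd differed by −2.33 (SE 0.64, 5.04-fold, unadjusted p = 0.001507, adjusted p = 0.8137) and Retn by −2.14 (SE 0.618, 4.4-fold, unadjusted p = 0.002313, adjusted p = 0.8366) on the log2 scale. Across the 16 alternatives run, the adjusted p of Cfd ran from 0.08396 to 1.0 and that of Retn from 0.2533 to 1.0 in the 15 that gave one.

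The adipocyte and brown adipocyte lists had lower medians in FL_WT than in GC_WT TpB, with overlapping ranges and no gene called. The adipocyte list (10 genes, none at 0) summed to 588.9 to 1460 TPM (median 1157) in GC_WT and to 358.9 to 901.9 (median 559.0) in FL_WT. The brown adipocyte list (8 genes) summed to 259.7 to 847.8 TPM (median 607.0) in GC_WT and to 139.8 to 573.6 (median 311.4) in FL_WT. This list is not particular to fat, as it summed to 1951 to 2272 TPM in GC_WT Kid and 698.6 to 828.5 in GC_WT Liv. The adipocyte list summed to 205.2 to 225.3 TPM in GC_WT Kid and 342.2 to 392.5 in GC_WT Liv. The skeletal muscle list was 8702 to 23810 TPM in GC_WT and 3768 to 17270 in FL_WT. With the adipocyte sum as a covariate, the difference of Cfd was −1.06 (unadjusted p = 0.0373) and that of Retn −1.33 (unadjusted p = 0.02912). What part fat or muscle cells have in these values was not tested. Without the library of GC_KO mouse 01 the difference of Cfd stayed at −2.33, with an unadjusted p of 1.23e-05 and an adjusted p of 0.2231. In Nrf2-KO mice Cfd ran from 0.98 to 239.2 TPM (median 108.4) on the ground, and the flight mice had 29.3, 65.2, 66.4, 73.8 and 96.2. That difference was −0.85 (adjusted p = 0.9986). Adipoq in TpB ran from 29.4 to 69.2 TPM in GC_WT and from 15.1 to 59.7 in FL_WT (−1.01, adjusted p = 0.9999).

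**Figure D5:**
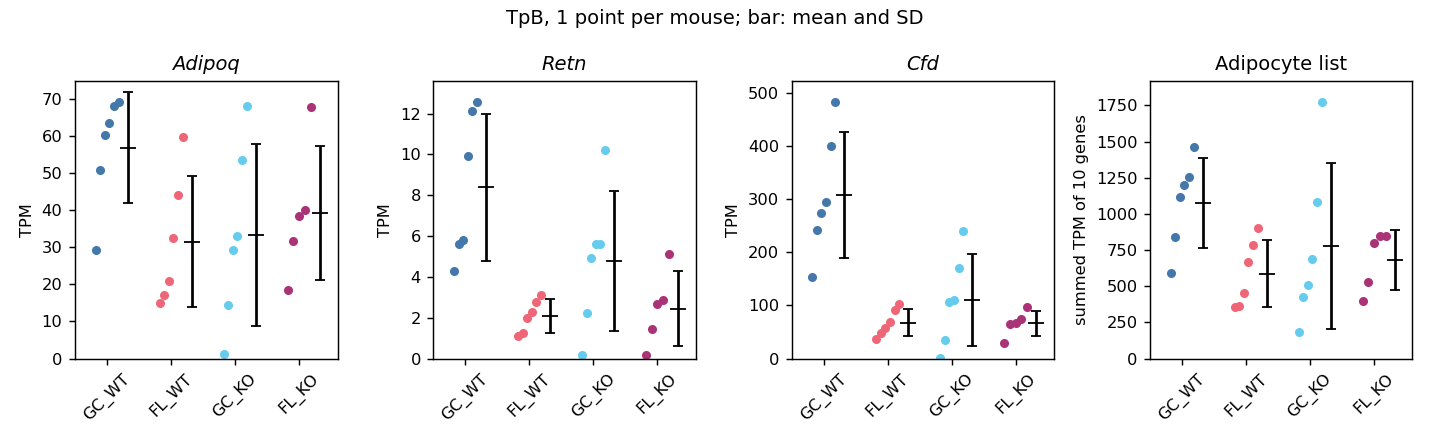
TPM of Adipoq, Retn and Cfd and the summed TPM of the 10 adipocyte genes in TpB, 1 point per mouse, by group (6 mice, 5 in FL_KO), with bars for the mean and SD. Cfd lay at 37.0 to 102.9 TPM in FL_WT and at 152.6 to 483.5 in GC_WT, while the adipocyte sums of these groups overlapped.

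The ratio of Cfd to Adipoq, chosen after the values were seen and given without a test, puts the pair on a common scale. Its median in eWAT was 4.76 in GC_WT (3.56 to 5.65) and 2.02 in FL_WT (1.51 to 3.0), and 3.8 in GC_KO (3.36 to 5.81) and 2.51 in FL_KO (1.98 to 3.07). In TpB it was 5.49 in GC_WT (3.8 to 7.11) and 2.27 in FL_WT (1.49 to 3.37), and in Thy 5.36 (4.28 to 7.14) and 3.29 (1.91 to 3.79). The WT ranges did not overlap in these 3 tissues, which came from the same mice. How often ratios of other gene pairs were apart was not computed. In iBAT they did, with 2.31 in GC_WT (1.09 to 2.72) and 1.36 in FL_WT (1.01 to 1.87). In Nrf2-KO mice the ranges were apart in eWAT and overlapped in the other 3 tissues. The ratio was 3.21 in GC_KO (0.766 to 3.73) and 1.7 in FL_KO (1.42 to 2.1) in TpB, and 3.19 (1.94 to 4.6) and 2.84 (1.91 to 4.12) in Thy. In iBAT the median was higher in FL_KO, at 1.18 (0.995 to 1.25), than in GC_KO, at 1.06 (0.507 to 1.5).

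In Thy, Nampt rose with flight in both genotypes and Rarres2 in Nrf2-KO, 1 member in WT against 22.8% of all genes and 2 in Nrf2-KO against 38.2%. Nampt ran from 12.5 to 15.4 TPM in GC_WT (median 14.6) and from 17.6 to 26.8 in FL_WT (median 19.5). In GC_KO it ran from 8.42 to 15.7 TPM (median 12.6), and the FL_KO mice had 19.1, 20.5, 20.9, 20.9 and 22.0. Flight and ground did not overlap in either genotype, which was so for 19.4% of the genes with at least 5 TPM in WT and 17.6% in Nrf2-KO. The increases were 0.30 (SE 0.0701, adjusted p = 0.003467) in WT and 0.53 (SE 0.0741, adjusted p = 7.642e-06) in Nrf2-KO, the opposite direction to that in both fat depots.

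Rarres2 in Thy ran from 1.35 to 3.94 TPM in GC_KO (median 3.02), and the FL_KO mice had 3.45, 3.74, 5.95, 6.58 and 6.9. Its increase of 0.59 (SE 0.235, adjusted p = 0.04987) sat at the threshold and was lost under 9 of its alternatives, among them those without GC_KO mouse 04 (adjusted p = 0.119) and without FL_KO mouse 01 (0.08104), 09 (0.152) or 11 (0.1217). In WT it ran from 2.79 to 6.64 TPM on the ground and from 5.41 to 7.39 in flight, a difference of 0.24 (adjusted p = 0.4415).

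The adipocyte list was also higher in flight Thy in WT, while its Nrf2-KO ranges overlapped. It summed to 66.6 to 100.7 TPM in GC_WT and to 108.9 to 156.6 in FL_WT. In Nrf2-KO the sums were 48.0 to 96.7 in GC_KO and 77.4 to 149.8 in FL_KO. Of its 10 genes 2 were called higher in WT and none in Nrf2-KO, against 22.8% and 38.2% of all genes. In GC_WT the list also summed to 76.5 to 106.7 TPM in Cbr, where Adipoq averaged 0.04 TPM. In GC_WT Thy, Adipoq averaged 4.79 TPM. Which cells the list sums in Thy came from was not tested. Macrophage genes were higher too (4 of 8 in WT, 8 of 8 in Nrf2-KO), as were endothelial genes (2 of 6 and 5 of 6) and genes of the fibro-adipogenic precursor list (3 of 6 and 4 of 6). Of 4 skeletal muscle genes tested 1 was higher and 1 lower in WT, and 2 were higher and 1 lower in Nrf2-KO. Of 5 hepatocyte genes 2 were higher in WT, and of 4 mesothelial genes 2 were higher in Nrf2-KO. No brown adipocyte gene (4 tested) was called, and the epididymis genes were too low to test. What part these have in the adipokine values was not tested. Cfd, at 11.4 to 48.3 TPM in GC_WT and 12.9 to 42.5 in FL_WT, was not called (−0.31, adjusted p = 0.5841). With the adipocyte sum as a covariate, Cfd was −1.80 (adjusted p = 0.0009753) and Retn −1.77 (adjusted p = 0.008163) in WT, and the WT increase of Nampt was 0.23 and no longer called (adjusted p = 0.1194). In Nrf2-KO that fit called Cfd at −0.88 (adjusted p = 0.03383), Retn at −1.65 (adjusted p = 0.003845) and Adipoq at −0.75 (adjusted p = 0.04363). The adipocyte sums of WT flight and ground mice were apart, so this covariate and flight cannot be fully told apart. What part fat cells have in these fitted values was not tested.

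In MdB, Kid, Liv, Spl and Cbr none of the members tested (4 in each tissue) was called with flight in either genotype. The share of all genes called there in WT and Nrf2-KO was 0% and 0% in MdB, 0.119% and 0.159% in Kid, 3.45% and 3.34% in Liv, 2.26% and 0.668% in Spl, and 0.0244% and 0.0061% in Cbr. In Liv, where Rbp4 is made for export to the blood, it ran from 3626 to 3905 TPM in GC_WT and from 4167 to 4906 in FL_WT. That gap of 0.19 on the log2 scale was not called by edgeR (adjusted p = 0.3736), and it was called by limma on TPM (0.25, adjusted p = 0.04529). These WT groups did not overlap, which was so for 4.14% of the genes with at least 5 TPM. In Nrf2-KO mice Rbp4 ran from 3407 to 4355 TPM on the ground and from 4180 to 5492 in flight, with 0.13 by edgeR (adjusted p = 0.6448) and 0.26 by limma (adjusted p = 0.02794). In Kid, Rarres2 was 27.4, 29.2 and 30.5 TPM in GC_WT and 38.5, 42.8 and 53.3 in FL_WT, and 27.4, 29.6 and 30.4 in GC_KO against 35.3, 41.9 and 53.7 in FL_KO. All flight mice lay above the ground mice in both genotypes. With 3 mice against 3, groups were apart for 18.3% of the genes with at least 5 TPM in each genotype. The differences of Rarres2 in Kid were 0.55 (adjusted p = 0.3971) and 0.53 (adjusted p = 0.2258). Without FL_KO mouse 11 the latter was 0.70 and was called (adjusted p = 0.03111).

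Nrf2-KO and WT mice were compared on the ground and in flight. On the ground 3 pairs were called, all lower in Nrf2-KO. In eWAT this was Adipoq (1 of 8 members, 2.74% of all genes), which fell by 0.40 (SE 0.107, 1.32-fold, adjusted p = 0.04595) from the GC_WT to the GC_KO levels given above. The ranges overlapped. Leaving out any 1 of the 5 FL_KO mice, which share only the estimate of spread, took this call past the threshold (adjusted p from 0.05665 without mouse 09 to 0.0605 without mouse 01), and in a fit of the contrast groups alone it was 0.169. Cfd differed by −0.58 in the same comparison and was not called (SE 0.192, adjusted p = 0.116).

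In iBAT, Adipoq fell by 0.40 (SE 0.094, adjusted p = 0.02413) and Cfd by 1.39 (SE 0.302, 2.63-fold, adjusted p = 0.01378) in GC_KO against GC_WT, 2 of 8 members against 2.14% of all genes. The ranges overlapped for both genes. Lep was higher in GC_KO iBAT, at 10.8 to 39.7 against 1.23 to 14.8 TPM. That difference of 2.05 (SE 0.593) was not called by edgeR (adjusted p = 0.08037), was called by DESeq2 (adjusted p = 0.02484), and had overlapping ranges.

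No pair of member and tissue was called on the ground in TpB (0.198% of all genes), MdB (0.244%), Thy (3.81%), Kid (1.61%), Liv (2.64%), Spl (1.13%) or Cbr (0.836%). In flight, FL_KO against FL_WT, edgeR called none of the 52 pairs, and 6 had an unadjusted p under 0.05. DESeq2 called 1, Adipoq in iBAT (−0.34, adjusted p = 0.03962). The share of all genes called by edgeR in that comparison was 1.06% in eWAT, 1.5% in iBAT, 0.203% in TpB, 0.208% in MdB, 2.64% in Thy, 1.83% in Kid, 3.65% in Liv, 1.16% in Spl and 0.531% in Cbr.

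Receptors and binding partners of the adipokines were tested as a list of 13. In eWAT 1 of the 12 tested was higher with flight in WT, Cdh13 (T-cadherin, which binds adiponectin), at 34.5 ± 5.59 TPM in GC_WT and 58.3 ± 8.83 in FL_WT (n = 6 each). It rose by 0.66 (SE 0.112, adjusted p = 0.0004476). In Nrf2-KO 1 was higher, again Cdh13 (0.54, adjusted p = 0.007385), and 1 lower, the leptin receptor Lepr (−0.71, adjusted p = 0.04441). In iBAT none of 9 was called in WT. In Nrf2-KO iBAT, the adiponectin receptor Adipor1 (0.37, adjusted p = 0.0003278) and Cap1, described as a resistin receptor (0.18, adjusted p = 0.04683), rose and Cdh13 fell by 0.65 (adjusted p = 0.001304). In Thy 4 of 12 were higher and 2 lower in each genotype, and in TpB none of 11 was called. Of all genes, 13.4% were called in eWAT in WT and 7.71% in Nrf2-KO. These shares were 19.2% and 33.5% in iBAT, and 22.8% and 38.2% in Thy. The median of the list in eWAT was 0.13 in WT and −0.05 in Nrf2-KO, beside 0.00 and −0.01 for all genes.

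Of 28 other secreted proteins of fat, 22 were tested in eWAT, and 5 were higher and 4 lower with flight in WT. Of all genes in eWAT, 13.4% were called with flight in WT, 7.71% in Nrf2-KO and 2.74% for genotype on the ground. The chemokine gene Ccl2 went from 4.95 ± 3.52 to 36.8 ± 20.4 TPM and rose by 2.78 (SE 0.432, adjusted p = 0.0001912), and the Wnt inhibitor gene Sfrp5 rose by 2.36 (SE 0.385, adjusted p = 0.0002979). Angptl4, an inhibitor of lipoprotein lipase, rose by 0.77 (adjusted p = 0.002338), and the growth factor gene Igf1 fell by 0.88 (adjusted p = 0.00101). In Nrf2-KO eWAT 2 were higher, Angptl4 (1.06, adjusted p = 0.0005608) and the angiotensinogen gene Agt (0.54, adjusted p = 0.0332), and 1 was lower, Lcn2 (−1.71, adjusted p = 0.02292). On the ground, Lcn2 (1.93, adjusted p = 0.0157) and Sfrp5 (1.48, adjusted p = 0.03301) were higher in Nrf2-KO eWAT.

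In iBAT, Angptl4 was the 1 of 19 secreted proteins called in WT (1.14, adjusted p = 0.02113). Of all genes in iBAT, 19.2% were called with flight in WT, 33.5% in Nrf2-KO and 2.14% for genotype on the ground. In Nrf2-KO Angptl4 rose (1.24, adjusted p = 0.009248), while Fgf21 (−2.87, adjusted p = 0.006535) and C1qtnf12 (−0.28, adjusted p = 0.0167) were lower by edgeR, although mean TPM of C1qtnf12 was 37.5 in GC_KO and 41.6 in FL_KO. On the ground Lpl was lower in Nrf2-KO iBAT (−0.70, adjusted p = 0.004744). In Thy 2 of 19 were higher in WT and 9 in Nrf2-KO, and in TpB none of 24 was called. Over all genes in Thy the shares called were 22.8% and 38.2%. The list medians in eWAT were 0.21 in WT and 0.04 in Nrf2-KO.

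Of 16 transcriptional regulators of fat cells, 9 were lower and none higher with flight in eWAT of WT mice. In Nrf2-KO 4 were lower and none higher. Of all genes in eWAT, 13.4% were called in WT and 7.71% in Nrf2-KO. The list medians were −0.32 and −0.27. In WT, Mlxipl, which responds to carbohydrate, fell by 0.79 (SE 0.165, adjusted p = 0.002699), Ebf2 by 0.66 (adjusted p = 0.003181), Pparg, the master regulator of fat cell formation, by 0.44 (SE 0.0947, adjusted p = 0.00364) and its partner gene Rxra by 0.18 (adjusted p = 0.006457). In Nrf2-KO, Mlxipl (−0.93, adjusted p = 0.002658), Srebf1, which drives fatty acid synthesis (−0.88, adjusted p = 0.006355), Hif1a (−0.32, adjusted p = 0.01016) and Rxra (−0.18, adjusted p = 0.01858) fell.

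In iBAT, 1 regulator rose (Hif1a, 0.51, adjusted p = 3.369e-06) and 1 fell (Mlxipl, −0.86, adjusted p = 0.005208) in WT. In Nrf2-KO 4 rose and 2 fell, with Mlxipl (−1.42, adjusted p = 4.679e-05), Srebf1 (−1.44, adjusted p = 0.002436), Rxra (0.29, adjusted p = 0.007899) and Ppara (1.02, adjusted p = 0.01927) at the smallest adjusted p. In Thy 5 of 15 were higher in WT, and 7 were higher and 1 lower in Nrf2-KO, and in TpB none of 16 was called. Of all genes, 19.2% were called in iBAT in WT and 33.5% in Nrf2-KO, and 22.8% and 38.2% in Thy. The regulators' share in Nrf2-KO iBAT was thus near the background.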

How the data were processed

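RNA from 9 tissues was sequenced, from poly(A) RNA (in Thy, ribosome-depleted total RNA) with a strand-specific kit, as single reads on HiSeq2500. The authors aligned reads with STAR (version 2.6.1) to mm10 and quantified GENCODE vM20 genes with RSEM (version 1.3.1). They deposited expected counts, TPM and FPKM per library, and the 192 FPKM columns were not used. Expected counts as deposited were rounded and tested with edgeR 4.0.16 (R 4.3.3): TMM factors, filterByExpr by group, quasi-likelihood test, 1 fit per tissue over the 4 groups, Benjamini-Hochberg adjustment over all genes of the tissue, called under 0.05. TPM as deposited served for levels. The log2 fold changes in the text come from edgeR unless limma or DESeq2 is named. Figures were drawn in Python 3.11.15 with matplotlib 3.10.9 from tables made with pandas 2.3.3 and numpy 2.4.6. Other settings tried were DESeq2 1.42.0, limma (version 3.58.1, applied to log2(TPM + 1) or log2(TPM + 0.1)) for genes with a mean of at least 5 TPM in a group, RLE factors, no filter, FL mouse 04 included, only the groups of a contrast, the mouse number as a replicate block, each mouse of a group of up to 5 left out, a block for library set (TpB only), the summed adipocyte transcripts (log2) as a covariate in TpB, MdB and Thy, and Thy without GC_KO mouse 04. Further alternatives, chosen after seeing the data, left out the 3 iBAT libraries with over 1000 TPM of muscle transcripts and GC_KO mouse 01 in TpB.

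The 8 members, 3 pathway lists and 9 marker lists were chosen with earlier results of these data known. All members are named, and a pathway gene is named where called in eWAT or iBAT, at most 4 per list and comparison by adjusted p. Promoters came from RefSeq and gene positions from GENCODE vM21, on GRCm38. Same-numbered flight and ground mice are different animals. In Liv the deviations from the group means correlated in all 5 same-numbered Nrf2-KO pairs (0.2222 to 0.3691). Only 2 of these 5 flight mice correlated best with the ground mouse of their own number. A correlation of 0.1 was passed by 4 of 5 Nrf2-KO pairs in iBAT and in TpB and by 4 of 6 WT pairs in Liv. In eWAT 2 of 6 WT pairs and 2 of 5 Nrf2-KO pairs passed it. The fits were tested on simulated data. Depth was 8007523 to 10564704 counts in Thy and at least 13110740 elsewhere, which limits the low members in Thy most.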

Additional observations from a re-analysis of the deposited data

Results flagged for a closer look

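Within groups of 5 or 6 mice, 5 of the 130 tested sets of values had 1 mouse far from the others by Dixon's criterion, and chance alone marks about 1 in 20 groups. Cfd in Spl was 51.2 TPM in FL_WT mouse 06 against at most 2.33 in the other 5, and Adipoq was 8.07 TPM in the same library. Lep in iBAT was 14.8 TPM in GC_WT mouse 08 (next 5.75) and 19.9 TPM in FL_WT mouse 05 (next 8.42). Rbp4 was 756 TPM in eWAT of FL_KO mouse 11, the lowest of its group (next 898), and 31.2 TPM in Cbr of GC_KO mouse 02, the highest (next 20.1). The cause was not tested in any of these.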

How the results depend on the processing

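No called fold change turned in direction: of 245 alternative values of the 18 called pairs, 217 stayed on their side of the threshold and 28 lost the call. The number of pairs called for flight in Nrf2-KO mice, 6 by edgeR, was 10 by limma on log2(TPM + 1) and 10 on log2(TPM + 0.1). For FL_KO against FL_WT it was 0 by edgeR and 1 by DESeq2. Leaving out 1 mouse gave 8 to 9 pairs for flight in WT, 5 to 7 for flight in Nrf2-KO, 2 to 3 for genotype on the ground, and 0 for genotype in flight and for the interaction; where 1 mouse then remained in MdB, it was assumed to vary like the other groups. In eWAT, iBAT and Thy the mice left out singly were those of FL_KO and, in Thy, GC_KO mouse 04. No WT mouse was left out there, so these counts do not show how far calls for flight in WT rest on single mice. Nor was a ground mouse left out singly in eWAT or iBAT, where genotype on the ground was called. Such fits are also among the 245 alternative values. With the mouse number as a replicate block the counts were 8 for flight in WT, 7 in Nrf2-KO and 0 for the interaction. The block ended the calls of Adipoq in iBAT of WT mice (adjusted p = 0.08805) and of Rarres2 in Thy of Nrf2-KO mice (0.1382). Only in Liv of Nrf2-KO mice did all same-numbered pairs pass a correlation of 0.1. In iBAT and TpB 4 of 5 Nrf2-KO pairs passed it, and in Liv 4 of 6 WT pairs. At most 2 pairs did so in any other tissue and genotype examined. At most 2 flight mice of a tissue and genotype correlated best with the ground mouse of their own number. Whether same-numbered mice share more than a number was not tested. Fitting only the groups of a contrast ended the call of Cfd in GC_KO iBAT (adjusted p = 0.05017). Groups of at most 6 mice limit these counts, and low members in Thy rest on the shallowest libraries.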

Other observations

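FL mouse 04, which was left out of FL_KO, had lower adipokine transcripts in fat than the other flight Nrf2-KO mice in several cases. In eWAT it had 5740 TPM of Cfd against 9050 to 16000 in the other 5, 849 TPM of Retn against 1130 to 1360, 617 TPM of Rarres2 against 682 to 804, and 4450 TPM of Adipoq against 4570 to 5230. Apln, at 19.5 TPM, was above the others (7.41 to 16.1), and Nampt, at 62.9 TPM, lay within their range (50.8 to 63.9). In iBAT, Cfd was 521 TPM against 739 to 984 and Adipoq 614 against 646 to 785.

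Cfd and Adipoq also appeared together in single libraries of tissues that otherwise held almost none. In Cbr, FL_WT mouse 03 had 8.85 TPM of Cfd and 3.55 TPM of Adipoq, and the other 5 FL_WT libraries listed both at 0.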
